A study of Homo sapiens with 6 samples.

Results

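The topoisomerases and the tyrosyl-DNA phosphodiesterases were followed in MM.1R, a human multiple myeloma line resistant to glucocorticoids, on Affymetrix PrimeView arrays. The 8 genes were TOP2A, TOP2B, TOP1, TOP1MT, TOP3A, TOP3B, TDP1 and TDP2, of 17534 genes in the table. They were read by the 23 probe sets, of 47481, whose platform annotation names 1 of these genes and no other. A further probe set that names TOP1 together with FMO4 and the pseudogene TOP1P1 was left out. The arrays fall into 2 groups of 3, cells that received the control short hairpin virus (shCtrl) and cells that received epirubicin hydrochloride, an anthracycline, added to stop proliferation according to the labels. Since a virus is named for the controls and not for the treated cells, its effect and that of the drug cannot be told apart. The labels give neither the dose nor the time of treatment. Nor do they say that replicates were grown as separate cultures, so p-values here measure only the spread between these arrays, which may be technical.

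Topoisomerases relieve the twisting and tangling of DNA by cutting it, passing strands through the cut and sealing it again, and during the cut a tyrosine of the enzyme is joined to the DNA end. TOP2A and TOP2B cut both strands and are the enzymes that anthracyclines act on: TOP2A is made by proliferating cells, most of all late in the cell cycle, and separates sister chromatids, while TOP2B is made throughout the cycle and works in transcription. A drug can hold the enzyme on the cut end, and such trapped complexes are taken apart by proteases, by nucleases or by TDP2, which cleaves the bond that TOP2 makes, and TDP1, which cleaves the bond that TOP1 makes.

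TOP2A was the only one of the 8 genes to pass the test, and it fell on all 3 of its probe sets, to between 70.2% and 75.5% of the control level. TDP1 lay lower on all 4 of its probe sets by 1.17-fold to 1.25-fold, and TOP2B on all 3 by 1.13-fold to 1.18-fold, each with an adjusted p under 0.05 but short of the fold threshold; for 1 of the TDP1 probe sets, 11723323_at, that p was above 0.05 when some of the arrays were left out 1 at a time. TOP1, TOP1MT, TOP3A, TOP3B and TDP2 had no probe set past the test. A probe set was called at a Benjamini-Hochberg adjusted p under 0.05 in limma and a fold change of at least 1.3, which is 0.38 on the log2 scale. For TOP2A, the 95% CI of 11720970_at and that of 11720971_at include this fold threshold. Of the 23 probe sets 3 were called, where 6.27% of all probe sets were: 3 lower, against 2.62%, and 0 higher, against 3.65%. Without the fold threshold 12 had a limma adjusted p under 0.05, where 25.1% of all probe sets did: 11 lower, against 13.3%, and 1 higher, against 11.8%. At an unadjusted limma p under 0.05, 14 were lower, against 18.7% of all probe sets, and 1 higher, against 17.6%. The values of the groups did not overlap on 17, where 41.2% of all probe sets showed this: epirubicin lay below on 16, against 21.1%, and above on 1, against 20.0%. The median log2 fold change was -0.15 over the 23 probe sets and 0.006 over all probe sets, and 20 of the 23 lay below 0, where 48.2% of all probe sets did. Most of the 23 lay above the median level of all probe sets, so these shares were not matched for level.

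The start regions of TOP2A, TOP2B and TDP1, the genes with an adjusted p under 0.05 on each probe set, are shown because the TOP2A promoter is known for its CCAAT boxes, bound by the factor NF-Y, and for cell cycle homology region (CHR) elements, which serve the cell cycle repressor and activator complexes DREAM and MMB. The choice of these 3 was made after the values were seen. They are RefSeq sequences of GRCh38.p14 that run from 250 bases before to 50 bases after the annotated start, and 7 of the 8 genes had 1 or more of them, 8 windows in all. Capitals mark CCAAT, or ATTGG where the box lies on the other strand, and the CHR letters TTTGAA or TTTAAA, with TTCAAA as the first of these on the other strand. The TOP2A window lies at chr17:40417847-40418146 on the minus strand, the TOP2B window shown, the second of its starts, at chr3:25664858-25665157 on the minus strand, and the TDP1 window at chr14:89955677-89955976 on the plus strand.
TOP2A: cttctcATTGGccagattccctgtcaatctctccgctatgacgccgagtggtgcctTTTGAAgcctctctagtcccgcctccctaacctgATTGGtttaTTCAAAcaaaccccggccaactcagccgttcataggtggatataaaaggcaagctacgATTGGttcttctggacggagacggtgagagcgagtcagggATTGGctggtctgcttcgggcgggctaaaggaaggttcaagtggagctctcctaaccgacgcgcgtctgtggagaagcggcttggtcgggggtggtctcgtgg
TOP2B: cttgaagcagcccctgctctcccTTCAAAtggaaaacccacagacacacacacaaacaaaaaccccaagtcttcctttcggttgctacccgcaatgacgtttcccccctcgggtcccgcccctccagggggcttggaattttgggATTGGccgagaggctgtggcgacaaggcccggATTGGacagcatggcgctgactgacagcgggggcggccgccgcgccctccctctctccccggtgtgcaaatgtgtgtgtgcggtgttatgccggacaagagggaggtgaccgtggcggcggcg
TDP1: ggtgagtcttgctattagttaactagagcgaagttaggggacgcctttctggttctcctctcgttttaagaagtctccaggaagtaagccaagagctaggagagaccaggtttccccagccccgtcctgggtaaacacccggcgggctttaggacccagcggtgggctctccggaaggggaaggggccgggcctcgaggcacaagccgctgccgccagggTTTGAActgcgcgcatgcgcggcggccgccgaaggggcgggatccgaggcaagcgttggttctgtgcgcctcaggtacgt

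The TOP2A window held 4 CCAAT boxes, all as ATTGG, which begin 244, 160, 93 and 53 bases before the start, and 2 CHR matches, which begin 194 and 151 bases before it. The TOP2B window shown held 2 CCAAT boxes, at 105 and 73 bases, and 1 CHR match, at 227 bases, while the other TOP2B window held neither. TDP1 had 1 CHR match, 30 bases before the start, and TOP1 had 1, at 31 bases. The windows of TOP3A, TOP3B and TDP2 held no match. Of 35116 windows in the table, 34.6% hold a CCAAT box on either strand, 24.0% hold a CHR match and 9.27% hold both, and 0.991% hold at least 4 CCAAT boxes. These are matches of letters, and no binding was measured in these cells.

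**Figure D1:**
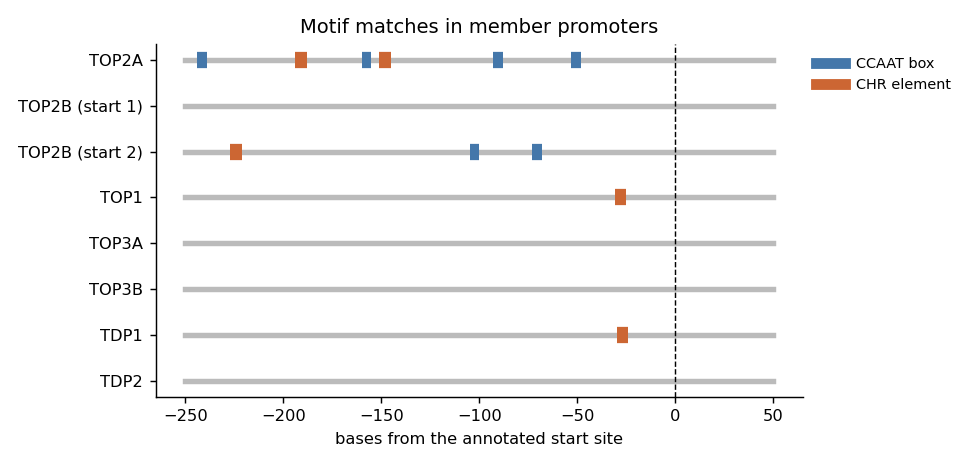
Matches to CCAAT (blue) and to the CHR letters (orange) on either strand in the 8 windows, in bases from the annotated start (dashed line). TOP2A holds 4 CCAAT boxes and 2 CHR matches, the second TOP2B window 2 and 1, TOP1 and TDP1 1 CHR match each, and the other windows none.

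TOP2A was read by 3 probe sets with the suffix _at, which Affymetrix gives to probe sets designed against 1 transcript alone. On 11720970_at, the brightest, the control arrays read log2 values of 11.00, 10.97 and 11.01 and the epirubicin arrays 10.57, 10.61 and 10.59. All 3 epirubicin values lay below all 3 control values, by 0.36 between the nearest. The level went from 11.00 ± 0.02 to 10.59 ± 0.02 (SD, n = 3), a log2 fold change of -0.40 (SE 0.03, CI -0.49 to -0.32, limma adjusted p = 0.000457). Under quantile normalization on top of the deposited values this probe set changed by -0.37, just short of the fold threshold, and 2 of the 3 TOP2A probe sets were called.

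On 11720971_at the control arrays read 9.88, 10.04 and 9.94, and the epirubicin arrays 9.46, 9.50 and 9.43. On 11720972_at the values were 9.18, 9.21 and 9.17 against 8.67, 8.70 and 8.66. The groups did not overlap on either, and the spread within a group, at most 0.08 (SD), was small beside the distance between the groups. The log2 fold changes were -0.49 (SE 0.05, CI -0.61 to -0.37, limma adjusted p = 0.00091) and -0.51 (SE 0.03, CI -0.59 to -0.43, limma adjusted p = 0.000187), or 1.40-fold and 1.43-fold lower. The intervals of 11720970_at and 11720971_at include the fold threshold, while that of 11720972_at lies wholly beyond it. Of all probe sets, 1.04% to 2.23% lay lower still than the 3 of TOP2A. In bulk RNA, fewer cells that make a transcript and less transcript per cell cannot be told apart.

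**Figure D2:**
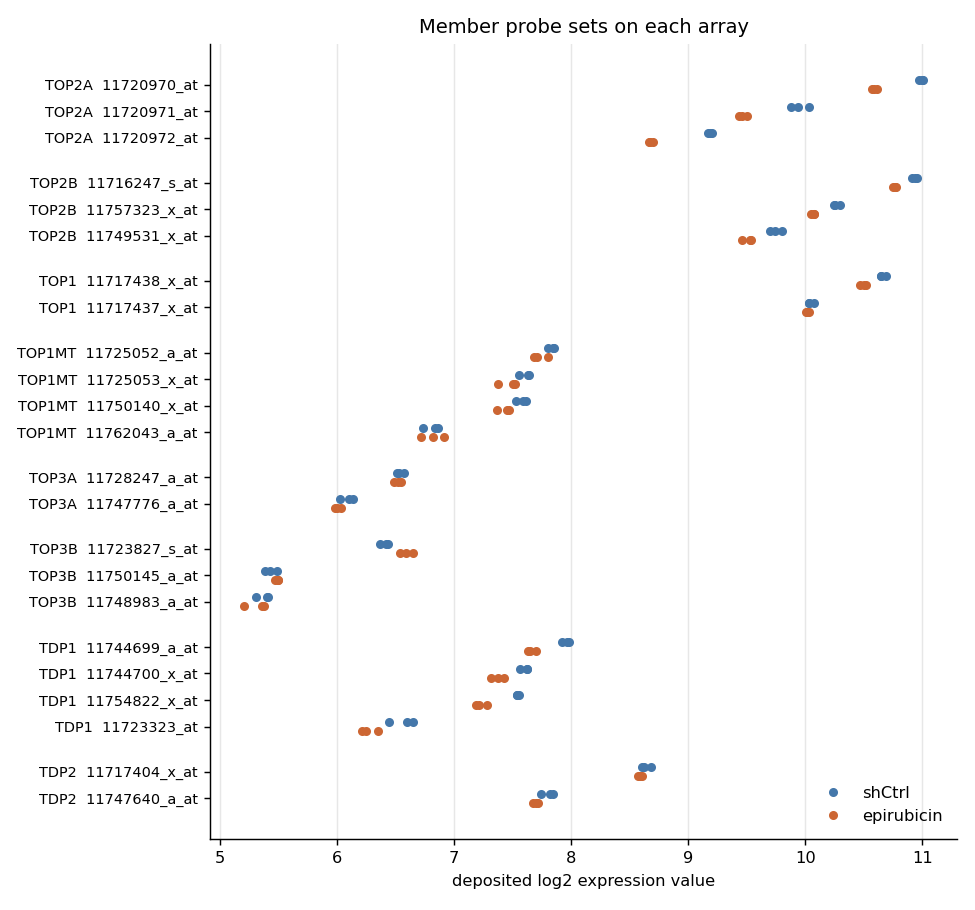
Deposited log2 expression value (horizontal axis) of each of the 23 probe sets on the 3 shCtrl (blue) and 3 epirubicin (orange) arrays, 1 point per array. All epirubicin points lie below all shCtrl points on every probe set of TOP2A, TOP2B and TDP1, while TOP3B 11723827_s_at shows the opposite order.

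TOP2B, the second target of the drug, was lower by less. On its brightest probe set, 11716247_s_at, the control arrays read 10.94, 10.96 and 10.92 and the epirubicin arrays 10.76, 10.77 and 10.75. The groups were 0.14 apart at the nearest, and the log2 fold change was -0.18 (SE 0.03, CI -0.26 to -0.09, limma adjusted p = 0.0105). The other probe sets, 11757323_x_at and 11749531_x_at, gave -0.20 (SE 0.04) and -0.24 (SE 0.04), with limma adjusted p of 0.00759 and 0.00784. The suffixes _s_at and _x_at mark probe sets that can also pick up similar sequences of other genes, so none of the 3 is specific to TOP2B by design. The 95% CI of all 3 ended short of the fold threshold.

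The change of TOP2A was compared with that of TOP2B within each array, as the mean of the TOP2A probe sets minus the mean of the TOP2B probe sets. Set to a control mean of 0, this difference was -0.015, -0.0080 and 0.023 on the control arrays and -0.25, -0.25 and -0.28 on the epirubicin arrays. Every epirubicin array lay below every control array. TOP2A changed by -0.47 and TOP2B by -0.21, a difference of -0.26 on the log2 scale (SD 0.020 in each group, n = 3; two-sided exact permutation p = 0.1, the lowest value that 3 against 3 arrays can give). TOP2A thus lost more of its signal than TOP2B on 3 of 3 epirubicin arrays, in a design that cannot reach 0.05 for 1 value.

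TDP1, which frees DNA ends from TOP1 and from other end-blocking lesions, was lower on each of its 4 probe sets. On 11744699_a_at, the brightest, the control arrays read 7.98, 7.92 and 7.96 and the epirubicin arrays 7.63, 7.70 and 7.64. The gap between the groups was 0.23, and the log2 fold change was -0.30 (SE 0.04, CI -0.39 to -0.21, limma adjusted p = 0.0021). On 11754822_x_at the values were 7.54, 7.56 and 7.53 against 7.21, 7.28 and 7.19, a change of -0.32 (SE 0.04, CI -0.41 to -0.22, limma adjusted p = 0.00194). Both intervals include the fold threshold. The probe set 11744700_x_at gave -0.23 (SE 0.04, limma adjusted p = 0.00979).

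The dimmest TDP1 probe set, 11723323_at, which is the 1 with the suffix for a unique transcript, read 6.60, 6.65 and 6.44 on the control arrays and 6.35, 6.21 and 6.25 on the epirubicin arrays. Its groups were 0.089 apart at the nearest, and its change of -0.29 had the widest error of the 4 (SE 0.07, limma adjusted p = 0.02). Leaving out each array in turn, that limma adjusted p ran from 0.0121 to 0.0663, and it was above 0.05 without shCtrl replicate 1 or 2 or epirubicin replicate 2 or 3. Of all probe sets, between 4.45% and 8.97% lay lower than the 4 of TDP1. The mean over its probe sets changed by -0.28 (CI -0.36 to -0.21, limma adjusted p = 0.000655 over genes), against -0.47 for TOP2A (CI -0.54 to -0.40, limma adjusted p = 8.7e-05 over genes).

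TDP2, which acts on the bond that TOP2 makes and so on the lesion that TOP2 poisons leave, was not called. On 11717404_x_at the control arrays read 8.62, 8.68 and 8.61 and the epirubicin arrays 8.58, 8.61 and 8.57. The groups were apart by 0.0017 alone, and the log2 fold change was -0.05 (SE 0.04, CI -0.14 to 0.04, limma adjusted p = 0.402). On 11747640_a_at it was -0.10 (SE 0.04, CI -0.20 to -0.006, limma adjusted p = 0.117). Within arrays, the mean TDP1 change less the mean TDP2 change was -0.21 (SD 0.048 in control and 0.014 in epirubicin arrays, n = 3; two-sided exact permutation p = 0.1, the lowest possible). This pair and those of TOP1 with TOP1MT and TOP3A with TOP3B were added after the values were seen, and over the 4 pairs the lowest exact permutation p after Benjamini-Hochberg adjustment was 0.133.

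**Figure D3:**
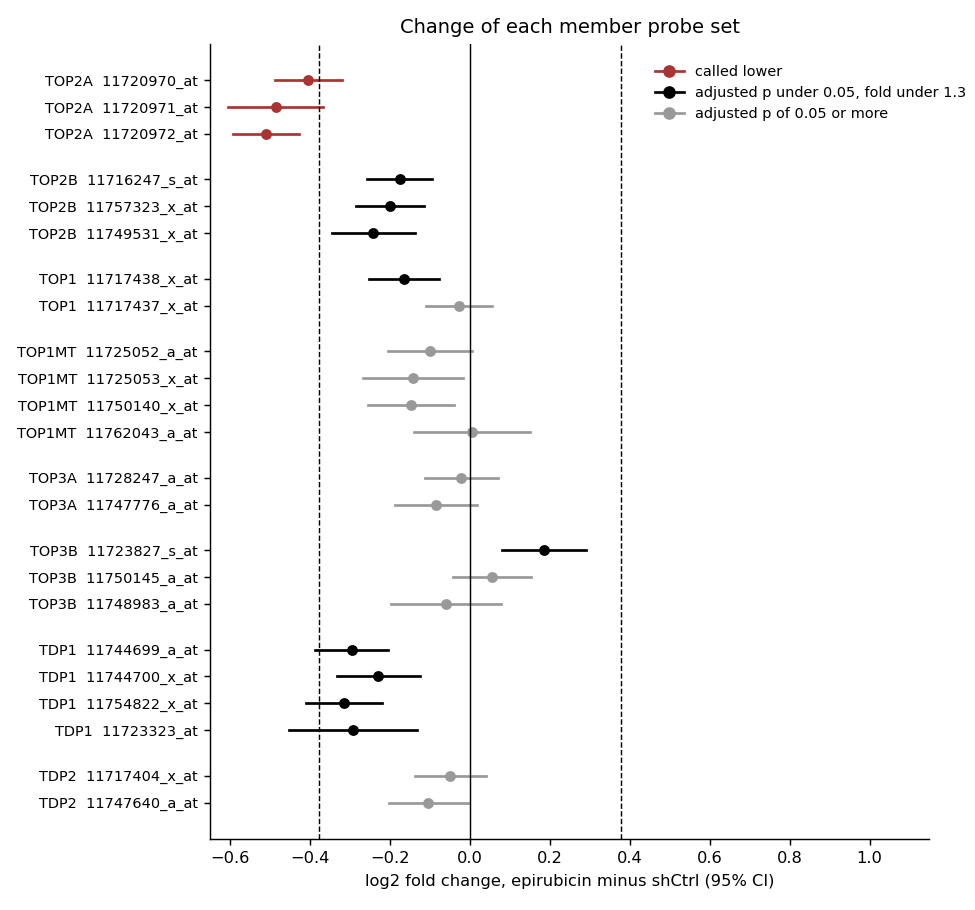
Log2 fold change, epirubicin minus shCtrl, of each of the 23 probe sets with its 95% CI from limma, and the 1.3-fold threshold as dashed lines. The 3 probe sets of TOP2A are called lower (red), those of TOP2B and TDP1 lie between the threshold and 0 (black), and the probe sets of TOP1MT, TOP3A and TDP2 have an adjusted p of 0.05 or more (grey).

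The TOP1 gene encodes the nuclear type I enzyme, which cuts 1 strand ahead of replication forks and RNA polymerases and is the target of the camptothecins. Its probe sets differed from each other. On 11717438_x_at the control arrays read 10.65, 10.65 and 10.69 and the epirubicin arrays 10.52, 10.47 and 10.50, a log2 fold change of -0.16 (SE 0.04, CI -0.25 to -0.08, limma adjusted p = 0.0183). Leaving out each array in turn, that limma adjusted p ran from 0.0367 to 0.0652, and it was above 0.05 without shCtrl replicate 3, epirubicin replicate 2 or epirubicin replicate 3. On 11717437_x_at the values of the groups overlapped, at 10.03, 10.03 and 10.07 against 10.01, 10.03 and 10.01, with a change of -0.03 (SE 0.03, CI -0.11 to 0.05, limma adjusted p = 0.624). Both carry the suffix for possible cross-hybridization. The probe set shared with FMO4 and TOP1P1 changed by -0.24 (SE 0.05, limma adjusted p = 0.0155) and was not called, being short of the fold threshold.

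TOP1MT, the mitochondrial type I enzyme, had 4 probe sets and none at an adjusted p under 0.05. On the brightest, 11725052_a_at, the control arrays read 7.84, 7.80 and 7.85 and the epirubicin arrays 7.71, 7.80 and 7.68, so epirubicin replicate 2 lay next to control replicate 2. The changes ran from -0.15 to 0.004 and the limma adjusted p from 0.0559 to 0.972. The mean change of TOP1 (-0.096) and that of TOP1MT (-0.096) differed by 0.0005 within arrays (SD 0.037 in control and 0.045 in epirubicin arrays, n = 3; two-sided exact permutation p = 1). Leaving out each array in turn, that difference ran from -0.025 to 0.020. By the brightest probe sets TOP1 changed by -0.16 and TOP1MT by -0.10, so the likeness of the means depends on the probe sets averaged.

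TOP3A and TOP3B encode type IA enzymes. TOP3A works with BLM, RMI1 and RMI2 to undo the crossed strands left by recombination, and TOP3B with TDRD3 acts on RNA as well as DNA. The groups overlapped on both TOP3A probe sets, whose log2 fold changes were -0.02 (SE 0.04, CI -0.11 to 0.07) and -0.08 (SE 0.04, CI -0.19 to 0.02). TOP3B was the 1 gene with a probe set higher at an adjusted p under 0.05. On 11723827_s_at the control arrays read 6.37, 6.43 and 6.42 and the epirubicin arrays 6.59, 6.54 and 6.65, a log2 fold change of 0.19 (SE 0.04, CI 0.08 to 0.29, limma adjusted p = 0.0228), under the fold threshold. Leaving out each array in turn, that limma adjusted p ran from 0.0256 to 0.0773, and it was above 0.05 without shCtrl replicate 1 or 3 or epirubicin replicate 1 or 3.

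The other TOP3B probe sets did not show this. They changed by 0.06 (SE 0.04) and -0.06 (SE 0.06), with limma adjusted p of 0.387 and 0.518, and their levels over the 6 arrays lay below the median of all probe sets. The 3 changes thus differed in sign, and the mean over them was 0.06 (CI -0.002 to 0.12). Within arrays the mean TOP3A change less the mean TOP3B change was -0.11 (SD 0.019 in control and 0.040 in epirubicin arrays, n = 3; two-sided exact permutation p = 0.1, the lowest possible).

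**Figure D4:**
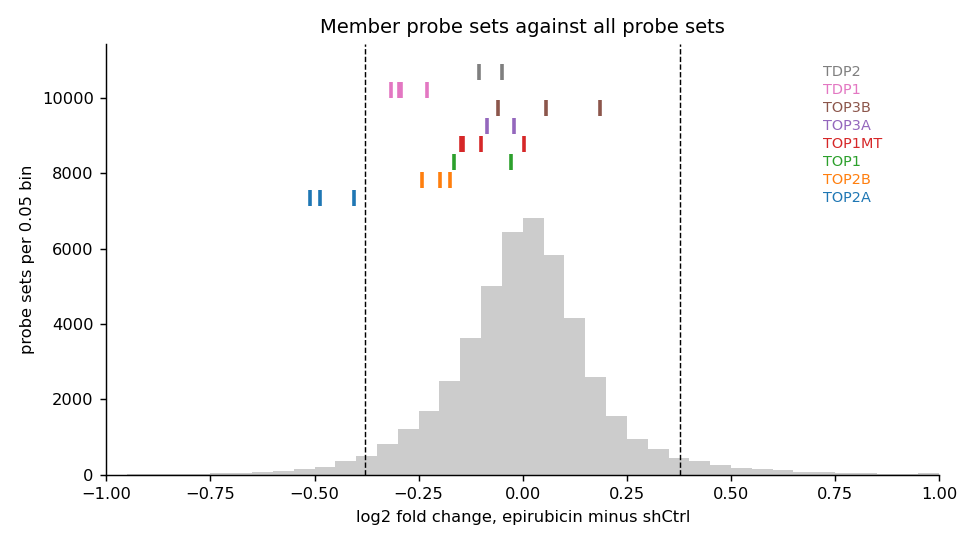
Number of probe sets per 0.05-wide bin of log2 fold change over all 47481 probe sets (grey, axis shown from -1 to 1), with the 23 probe sets as coloured ticks above and the 1.3-fold threshold dashed. TOP2A lies lowest, beyond the threshold, with 1.04% to 2.23% of all probe sets below it, and the other 20 ticks lie between the thresholds.

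Array medians differed little but by group, from 5.52 to 5.54 in control and from 5.56 to 5.57 in epirubicin arrays. Lower quartiles were also higher with epirubicin, at 3.87 to 3.90 against 3.84 to 3.85. Upper quartiles were lower with it on every array, at 7.44 to 7.46 against 7.47. The correlation of array values was 0.998 within a group, and 0.9945 to 0.9947 between a control and an epirubicin array. Of 8 plasma cell markers 8 lay above the median of all probe sets, from a log2 value of 5.84 for CD38 to 12.3 for TNFRSF17. The markers did not move as one: CD38 fell (-1.18 on the log2 scale) and IRF4 fell (-0.49). XBP1 was at -0.24 (limma adjusted p = 0.00279) and PRDM1 at -0.12 (limma adjusted p = 0.0366), both short of the fold threshold. SDC1, TNFRSF17 and MZB1 were at -0.06 to -0.07. Only SLAMF7 lay above 0, at 0.23 (limma adjusted p = 0.00362). Their summed log2 level was 88.2 in each control array and 86.1 to 86.3 in the epirubicin arrays. Among 4 markers each of epithelial, stromal, myeloid, and T or NK cells, NKG7 alone lay above that median and 0 of the 16 were called. CD2, a T and NK cell marker, was at 0.35 (SE 0.07, limma adjusted p = 0.012), short of the fold threshold. At an unadjusted limma p under 0.05, 3 of the 16 were higher, against 20.6% of all genes, and 1 lower, against 17.1%. The summed log2 level of the 4 T and NK markers was 18.2 to 18.6 in control and 18.8 to 19.1 in epirubicin arrays. The sums ran from 12.0 to 12.2 and from 12.2 to 12.6 for myeloid, at 13.9 and from 13.6 to 14.1 for stromal, and from 15.3 to 15.6 and from 15.1 to 15.5 for epithelial markers. The part of the marker shifts in the values above was not tested. For the array medians and quartiles, 2 alternatives were run, quantile normalization and arrays centred on their medians. The brightest TOP2A probe set then changed by -0.37 and -0.44, against -0.40 as deposited. That of TDP1 changed by -0.28 and -0.33, against -0.30.

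Genes that work beside these enzymes were taken from 6 lists, each gene by its brightest probe set. Of 66 measured genes 60 were not called, where 6.49% of all genes were called: 5 were lower, against 2.14%, and 1 higher, against 4.35%. The counts of each list at an unadjusted limma p under 0.05 stand against 17.1% of all genes lower and 20.6% higher. Their median log2 fold change was -0.10, and that of all genes 0.02. The 1 that rose and 1 of those that fell are partners of the topoisomerase III enzymes.

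RMI2, a subunit of the complex of TOP3A and BLM, rose 1.42-fold, from 8.50 ± 0.07 to 9.01 ± 0.06 (SD, n = 3; limma adjusted p = 0.000841). TDRD3, the scaffold that holds TOP3B, fell 1.44-fold, from 5.50 ± 0.09 to 4.98 ± 0.03 (SD, n = 3; limma adjusted p = 0.000826), on a probe set below the median of all values. Both genes had 1 probe set. The other subunits of the TOP3A complex did not reach the fold threshold: the helicase gene BLM was at 0.18 (SE 0.04) and RMI1 at 0.10 (SE 0.04). FMR1, a partner of TDRD3, was at -0.17 (SE 0.05) by its brightest probe set and -0.31 by the mean of its 8 probe sets. Of the 11 partners 9 were not called, and the median was -0.01, but the list moved both ways. With a limma adjusted p under 0.05 at any fold, 4 were lower, against 12.4% of all genes, and 2 higher, against 14.3%. At an unadjusted limma p under 0.05, 4 were lower, against 17.1%, and 4 higher, against 20.6%. Of their 27 probe sets 6 were called lower, against 2.62% of all probe sets, and 1 higher, against 3.65%. TOP6BL, a partner of the meiotic enzyme SPO11, was at -0.27 (SE 0.04).

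Of 14 proteases, SUMO and ubiquitin enzymes that act on trapped complexes, 1 was lower and 0 higher (median -0.007), and at an unadjusted limma p under 0.05 the counts were 4 and 2. It was DDI2, a protease of ubiquitinated proteins, at -0.43 (SE 0.06), on 1 of 4 probe sets, with a mean over them of -0.18. SPRTN, the protease that digests proteins crosslinked to DNA, was not called (-0.10, SE 0.05, limma adjusted p = 0.231), nor was ZNF451, a SUMO ligase that opens TOP2 to TDP2 (0.19, SE 0.04). UCHL3, a deubiquitinase that stabilises TDP1, was at -0.36 (SE 0.04, limma adjusted p = 0.00165), just under the fold threshold.

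Of 10 genes listed for nucleases that remove trapped complexes, partners and repair factors included, 1 was lower and 0 higher (median 0.07). At an unadjusted limma p under 0.05 the counts were 1 and 4. NBN, which with MRE11 and RAD50 forms the nuclease that clips trapped TOP2 from DNA ends, fell by 0.40 on the log2 scale (SE 0.04, limma adjusted p = 0.000826), with 3 of 5 probe sets called. Its partners MRE11 (-0.04, SE 0.04) and RAD50 (0.10, SE 0.04) were not called.

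The genes that complete repair after TDP1 or TDP2 lay mostly below 0 without passing the fold threshold. Of 11 measured, 0 were called, 10 lay below 0, where 44.3% of all genes did, and 7 were lower with a limma adjusted p under 0.05, where 12.4% of all genes were. Without adjustment 9 were lower and 0 higher at a limma p under 0.05. The median was -0.22. PARP1, which recruits TDP1 to breaks, was at -0.28 (SE 0.04), the ligase gene LIG3 at -0.28 (SE 0.04), and XRCC5 and XRCC6, which encode the Ku proteins of end joining, at -0.28 (SE 0.03) and -0.26 (SE 0.05). XRCC1, the scaffold of the LIG3 pathway, was at 0.05 (SE 0.05).

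TOP2A shapes mitotic chromosomes together with the condensins. Of 10 genes of the condensins and the mitotic chromosome axis, 2 were lower and 0 higher (median -0.19), or 7 and 1 at an unadjusted limma p under 0.05. MKI67, which encodes the proliferation marker Ki-67, fell by 0.52 on the log2 scale (SE 0.04) on its brightest probe set. All 6 of its probe sets were called lower, with a mean change of -0.61. NCAPD2, a condensin I subunit, fell by 0.46 (SE 0.05) on its brightest probe set, and both of its probe sets were called lower. MKI67 and TOP2A are both made by cycling cells, and the part of a smaller share of cycling cells in the TOP2A values was not tested. The core condensin genes SMC2 and SMC4 were not called (-0.02, SE 0.05, and -0.13, SE 0.04).

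TOP2B sits with cohesin and CTCF at the bases of chromatin loops. Of those 10 genes 0 were called in limma, 3 were lower, against 12.4% of all genes, and 1 higher, against 14.3%, with a limma adjusted p under 0.05 at any fold, and their changes ran from -0.15 to 0.14 (median -0.11). At an unadjusted limma p under 0.05, 7 were lower and 1 higher. CTCF itself was at -0.03 (SE 0.03) and the cohesin subunit RAD21 at -0.15 (SE 0.04).

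**Figure D5:**
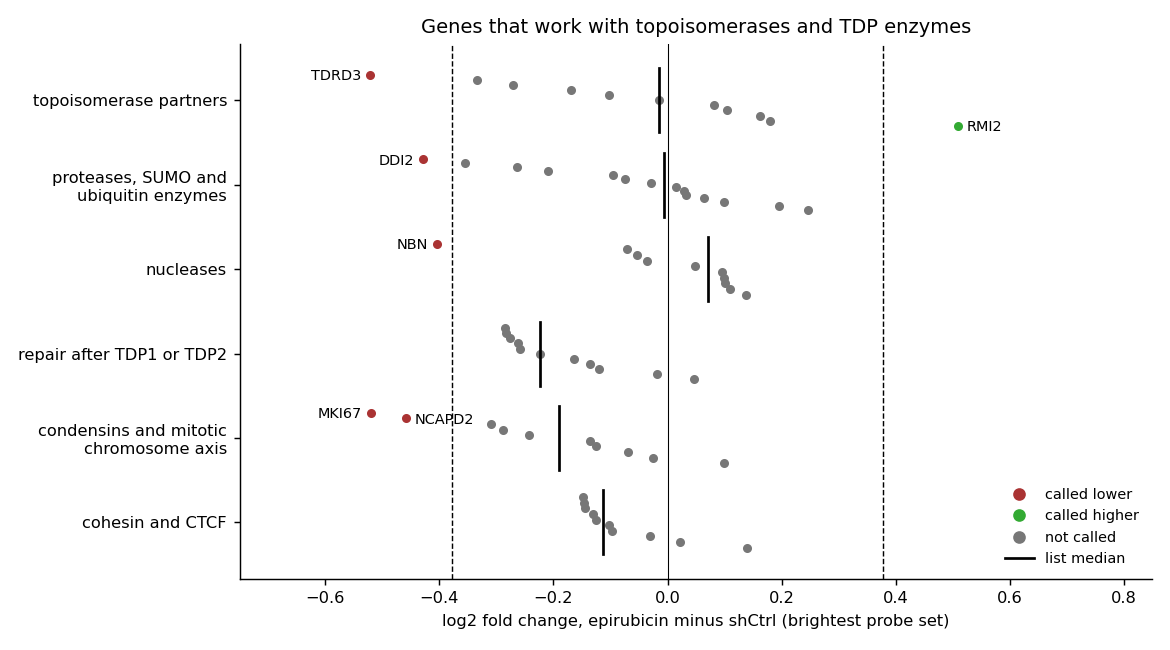
Log2 fold change, epirubicin minus shCtrl, of the 66 genes of 6 lists, each by its brightest probe set, with the 1.3-fold threshold dashed and the list median as a black bar. TDRD3, DDI2, NBN, MKI67 and NCAPD2 are called lower (red) and RMI2 higher (green). The medians run from -0.22 for repair after TDP1 or TDP2 to 0.07 for the nuclease list.

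Among the other 17526 genes, those whose values over the 6 arrays lay nearest to TOP2A, by the Euclidean distance between log2 values set to a control mean of 0, were RUVBL2 (0.019), DHX9 (0.035), MPHOSPH10 (0.037), DKC1 (0.037) and RRBP1 (0.039). Their log2 fold changes were -0.41, -0.40, -0.39, -0.40 and -0.39. Nearest to TOP2B were DNAJA2 (0.016), EIF2B4 (0.028), STK33 (0.028), UBE2J1 (0.028) and PPIB (0.030), with changes of -0.16 to -0.18. With 2 groups of 3 arrays, this likeness is mostly a like size of change.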

How the data were processed

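The authors' deposited log2 expression values, 1 per probe set and array on 6 PrimeView arrays, were used as given. The log2 scale was read from their range (1.41 to 13.73). The affy package, with no version, is named in the submitters' processing notes; for background correction, normalization and probe summary no method is given in these sources; detection calls were not used. Platform annotation gave 1 symbol to 43976 probe sets, several to 1558 and none to 1947; symbols were updated by Entrez number against RefSeq (43954 matched).

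All 47481 probe sets were fitted with limma 3.58.1 in R 4.3.3 (lmFit, eBayes, no covariate), with Benjamini-Hochberg adjustment over all of them. The fit was tested on simulated data whose planted changes were larger than those of the 8 genes, so changes of their size were not covered. Call thresholds follow the series' design text. Fold changes are epirubicin minus control with limma's SE and 95% CI. Arrays number 3 per group, which limits the precision. All probe sets of the 8 genes are given; of each list up to 3 called genes per direction are named, and the 5 nearest profiles of TOP2A and TOP2B. Further list genes, not called, were picked as examples with their values in view. The 8 genes and the lists were chosen with earlier results of these data known, so no list is independent evidence. A gene's brightest probe set has the highest mean over the 6 arrays. Alternatives covered normalization, variance model, filter, probe set summary, fold rule, replicate block and leaving out each array.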

Additional observations from a re-analysis of the deposited data

How the results depend on the processing

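Of the 8 genes, TOP2A kept its direction under 16 alternatives. Changes of its brightest probe set ran from -0.44 to -0.37, with a mean over its probe sets of -0.47 and limma adjusted p from 2e-10 to 0.00683. Under quantile normalization alone the brightest probe set lost its call, while 2 TOP2A probe sets were still called lower. TDP1 ran from -0.33 to -0.28 and passed only with no fold threshold. With no fold threshold 5589 probe sets were higher and 6318 lower, of the 23 members 1 and 11. With the brightest probe set per gene 765 genes were higher and 376 lower, and 1 of the 8 was lower; with the mean of a gene's probe sets these were 576, 353 and 1. Against 1735 higher and 1242 lower as reported, arrays centred on their medians gave 1478 and 1633. Same-numbered arrays of both groups did not deviate together (correlations of -0.033, 0.017 and 0.0011), and arrays of unlike number gave -0.043 to 0.041. Such values cannot tell whether the replicates were made in pairs. With the replicate number as a block, 1718 probe sets were higher and 1228 lower, and 3 member probe sets, all of TOP2A, were lower and 0 higher; the brightest probe sets of TOP1 and TOP3B then had adjusted p of 0.0593 and 0.0591 in limma. The TOP2A minus TOP2B difference ran from -0.27 to -0.23 over 10 alternatives. With the block it stayed at -0.26, with an exact permutation p of 0.25, the lowest value that 3 blocks can give. The variance model, the array weights and the fold rules do not enter this difference. Leaving out each array in turn, 1642 to 1803 probe sets were higher and 1208 to 1356 lower, and the 3 member calls stayed. Without detection calls, the dim TOP3B and TDRD3 probe sets may sit near background.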
